A study of Homo sapiens with 12 samples.

Results

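The respiratory chain of the mitochondrial inner membrane was followed here through the RNA of its nuclear-encoded subunits. Members were the rows of the deposited expression table whose symbols begin with the family names of complex I (NDUF followed by A, AB, B, C, S or V), complex II (SDHA to SDHD), complex III (UQCR), complex IV (COX4 to COX8) and complex V (ATP5), with pseudogene symbols left out. The rule took 87 of 55771 rows. They were 38 genes of complex I, 4 of complex II, 9 of complex III, 17 of complex IV and 19 of complex V. NDUFA4 was counted with complex I by its symbol, although the protein is now regarded as a subunit of complex IV. The cytochrome c1 gene CYC1 is not taken by the rule and was kept among the electron carriers.

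All 12 libraries came from KELLY cells, an established human neuroblastoma line. The cells received 50 nM of a morpholino, an uncharged antisense oligonucleotide, carried by a DNA leash in a lipid complex, and were lysed after 48 h in medium with 4% serum. The 3 groups of 4 libraries differed in the oligonucleotide, which was a control, BPS1 or BPS2, and shared the line, the leash, the lipid and the dose. The study asked what changes when the long isoform of the noncoding RNA NEAT1 and the nuclear bodies built on it, paraspeckles, are raised. No untransfected cells were among the samples analysed here. A single cell line was used, and nothing in the labels tells whether replicates were grown as separate cultures. The p-values therefore cover the spread among these samples alone, and that spread may be technical.

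Complex I (NADH dehydrogenase) and complex II (succinate dehydrogenase) pass electrons to ubiquinone, complex III passes them to cytochrome c, and complex IV (cytochrome c oxidase) passes them to oxygen. Complexes I, III and IV pump protons as they do so, and complex V (ATP synthase) uses the resulting gradient to make ATP. Complex II is built from nuclear genes alone, whereas the other complexes also hold subunits encoded in mitochondrial DNA, so that RNA from both genomes is needed to build them. The promoters of these nuclear genes are known for sites of NRF1, of ETS factors such as GABP, and of YY1.

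RefSeq start sites (GRCh38.p14) were found on a primary chromosome for 68 of the members, and each promoter was read from 250 bases before to 50 bases after the start. The core of an NRF1 site was searched as GCATGCG, an ETS site as CCGGAAG, the core of a YY1 site as AAGATGG and a CCAAT box as CCAAT, each on both strands. The NRF1 letters were in 13 member promoters (19.1%) and in 4.13% of all 27305 promoters. The YY1 letters were in 16 (23.5%) against 6.06%, and the ETS letters in 19 (27.9%) against 10.7%. CCAAT was in 24 (35.3%), close to the 35.7% of all promoters. A match is a description of the letters, not a measured site. The 250 bases upstream of the RefSeq starts of ATP5MC1, ATP5MC2 and NDUFS7 are shown. These genes were chosen because ATP5MC2 and NDUFS7 were called in BPS1, in opposite directions. ATP5MC1, which encodes the same protein as ATP5MC2, was not called. The bases are written 5′ to 3′ on the strand of the gene, with matches to the motifs on either strand in capitals.
ATP5MC1, chr17:48892537-48892786, plus strand: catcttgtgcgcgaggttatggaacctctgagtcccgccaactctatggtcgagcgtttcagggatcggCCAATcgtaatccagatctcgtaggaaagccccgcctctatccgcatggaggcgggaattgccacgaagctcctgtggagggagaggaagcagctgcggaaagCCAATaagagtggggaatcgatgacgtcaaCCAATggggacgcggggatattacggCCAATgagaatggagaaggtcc
ATP5MC2, chr12:53676084-53676333, minus strand: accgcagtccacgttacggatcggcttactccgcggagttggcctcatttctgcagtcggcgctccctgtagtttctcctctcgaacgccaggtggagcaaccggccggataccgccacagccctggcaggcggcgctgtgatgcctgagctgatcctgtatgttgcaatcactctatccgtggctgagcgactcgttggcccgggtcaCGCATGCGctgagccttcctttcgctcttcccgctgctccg
NDUFS7, chr19:1383657-1383906, plus strand: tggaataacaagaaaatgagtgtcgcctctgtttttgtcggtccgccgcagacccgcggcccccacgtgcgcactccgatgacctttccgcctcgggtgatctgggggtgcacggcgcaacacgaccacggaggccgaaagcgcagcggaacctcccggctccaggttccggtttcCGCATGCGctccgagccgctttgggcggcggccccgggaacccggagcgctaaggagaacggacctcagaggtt
ATP5MC2 and NDUFS7 both held the NRF1 letters, in which matches on the 2 strands overlap, and no other motif in this window. For NDUFA5, the third member called in BPS1, the stretch searched held CCAAT and no NRF1 match, and is not shown. It is chr7:123601652-123601901 on the minus strand, upstream of and apart from the annotated gene at chr7:123536997-123558255. The absence of an NRF1 match therefore does not describe the sequence next to the annotated gene, which was not searched. The ATP5MC2 and NDUFS7 stretches lie upstream of the RefSeq start but inside the annotated genes, whose positions are given below. Their NRF1 matches are thus not upstream of the annotated genes. The ATP5MC1 stretch held CCAAT 4 times and no NRF1 match. Stretches of 30 bases around the YY1 letters are shown for 5 members of complexes I, II and III that are described below, with the match in capitals.
NDUFA7, chr19:8321342-8321371, minus strand: tcgcggacggAAGATGGcgtccgccacccg
NDUFA9, chr12:4649114-4649143, plus strand: attgtgggaaAAGATGGcggctgccgcaca
NDUFS7, chr19:1383914-1383943, plus strand: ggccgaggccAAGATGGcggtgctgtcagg
SDHB, chr1:17054003-17054032, minus strand: gtcaggagccAAGATGGcggcggtggtcgc
UQCRC1, chr3:48609604-48609633, minus strand: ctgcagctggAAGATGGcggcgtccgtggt
In each of these 5 the letters began 11 to 24 bases after the RefSeq start. NDUFS7 rose in BPS1 and the other 4 did not pass with all libraries.

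Totals of the deposited normalized counts were 29.6 to 33.3 M per library. The members made up 1.06% ± 0.115 of the total in control (SD, n = 4), 1.12% ± 0.176 in BPS1 and 1.11% ± 0.0509 in BPS2. Of the 87 members, 81 reached a value of 10 in 4 or more libraries and were tested. NEAT1, which the oligonucleotides were made to act on, was at 6879 ± 264 normalized counts in control, 2024 ± 420 in BPS1 and 4262 ± 412 in BPS2, and the groups did not overlap; a value per gene does not separate its short and long isoforms. All 10 markers of adrenergic neuroblastoma had a mean of at least 10. Of them, 5 were lower in BPS1 (50%, against 8.6% of all genes) and 1 in BPS2 (10%, against 1.21%) than in control. None of the 4 leukocyte markers and none of the 4 testis markers reached that mean. It was reached by 2 of 3 endothelial, 2 of 4 epithelial and 2 of 4 muscle markers. Their summed levels in control were at most 158, 75.1 and 236, against 258824 or more for the adrenergic markers. The 7 markers of the mesenchymal neuroblastoma state summed to 3968 to 4220 in control. Their sum was 4202 to 5150 in BPS1 and 4290 to 4678 in BPS2, and its part in the results below was not tested. Of the 6 that were tested, 2 were higher and 1 was lower in BPS1 than in control (50%). Their log2 changes ran from -0.69 to 1.42, and none passed in BPS2 against control. In bulk RNA, fewer cells of a type and less RNA per cell cannot be told apart.

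A pair of libraries from different groups stood apart in nearly every member. In control replicate 1, 79 of the 81 genes lay above their own median over the 12 libraries, with a median deviation of 0.30 on the log2 scale. In BPS1 replicate 4, 79 of 81 did so as well, with a median deviation of 0.53. BPS2 replicates 2, 3 and 4 had 79, 74 and 69 of 81 genes above their medians, with smaller median deviations of 0.12, 0.14 and 0.10, whereas BPS2 replicate 1 had 17. In control replicate 4 the median deviation was -0.19 and only 2 of 81 genes lay above their median. The median deviation of all genes was within 0.01 of 0 in each library. Member transcripts are short, with a median of 797.5 bases against 2966 in the protein-coding genes tested. In control replicate 1 and BPS1 replicate 4 the deviations of all protein-coding genes went with transcript length (Spearman's rho -0.350 and -0.405 across genes) and with GC content (0.256 and 0.369), which are descriptions over genes of 1 library each. BPS2 replicates 2 to 4 showed the same trends more weakly, with length at -0.195, -0.231 and -0.178 and GC content at 0.172, 0.211 and 0.130. These libraries take part in every BPS2 value below. The trends ran the other way in the remaining libraries, where GC content was below 0 throughout. Length was at 0.068, 0.210 and 0.298 in control replicates 2 to 4. It was at 0.215, 0.205 and 0.166 in BPS1 replicates 1 to 3, and at 0.149 in BPS2 replicate 1. Results are given with and without control replicate 1 and BPS1 replicate 4.

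**Figure D1:**
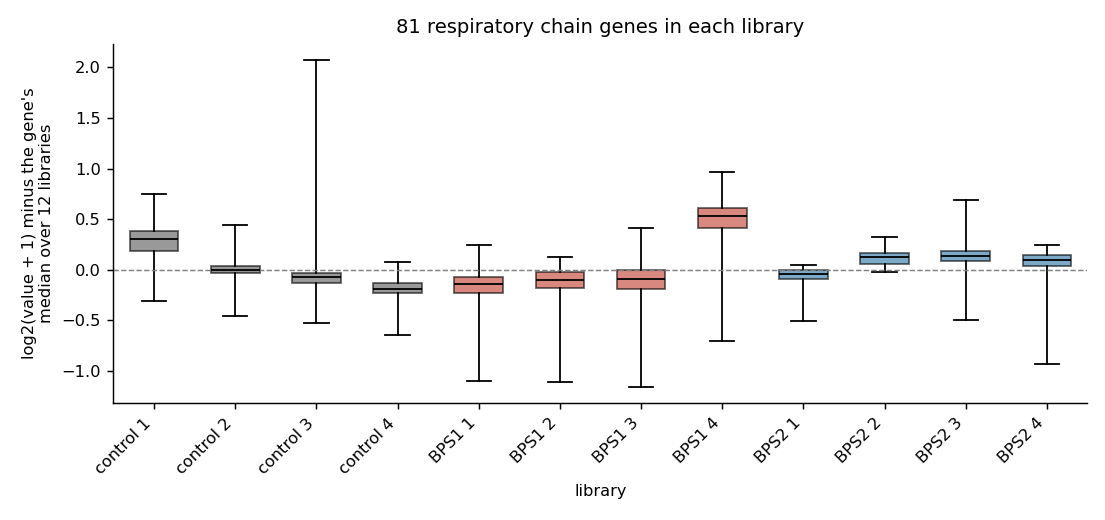
Deviation of each of the 81 tested genes from its own median over the 12 libraries (y axis, log2 of value + 1), by library (x axis). Boxes show the quartiles and the median and whiskers the lowest and highest gene; the boxes of control replicate 1 (median 0.30) and BPS1 replicate 4 (median 0.53) lie above 0, and the upper whisker of control replicate 3, at 2.07, is COX6B2.

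Of the 81 genes tested, 3 passed for BPS1 against control (limma, Benjamini-Hochberg adjusted p under 0.05 over 20454 genes), with NDUFS7 higher and ATP5MC2 and NDUFA5 lower. That is 3.70% of the members, against 8.6% of all genes tested. The median log2 fold change was 0.04, against 0.00 for all genes. For BPS2 against control no member passed, where 1.21% of all genes did, and 1 had an unadjusted p under 0.05. The median was 0.07. For BPS2 against BPS1, 2 members were higher in BPS2, ATP5MC2 and NDUFA5, and none was lower, which is 2.47% against 3.93% of all genes. The median was 0.03. The groups of 4 libraries did not overlap for 4 members in BPS1 against control, against 14.3% of all genes, for 1 in BPS2 against control, against 9.65%, and for 3 in BPS2 against BPS1, against 11.9%. With all 12 libraries the members were therefore called no more often than genes at large.

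**Figure D2:**
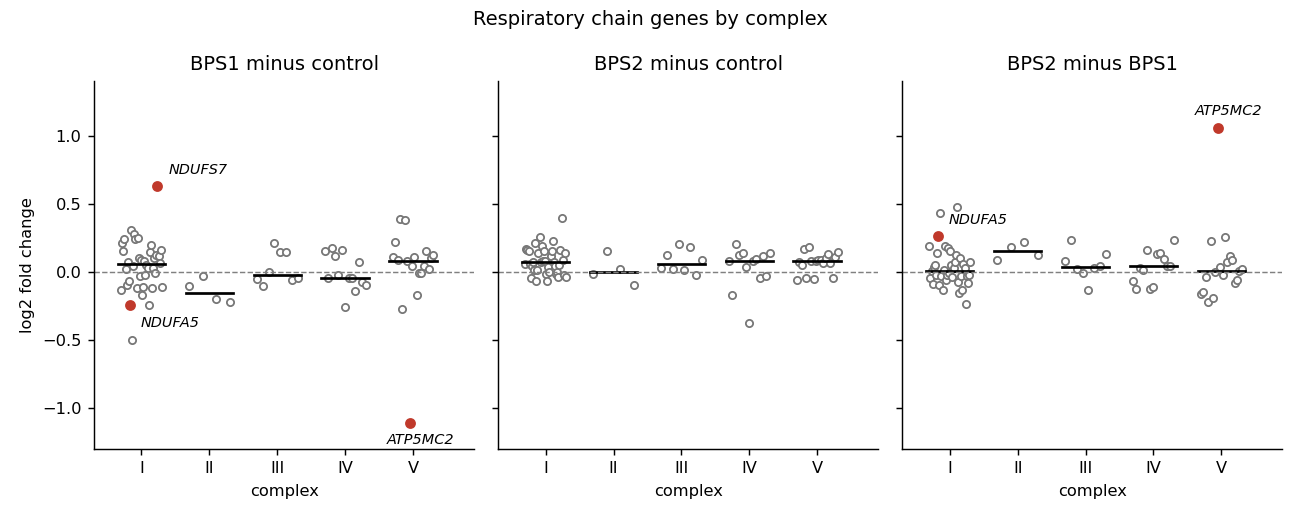
Log2 fold change (y axis) of the 81 tested genes by complex (x axis) in the 3 comparisons. Each point is a gene, filled red where the adjusted p is under 0.05, and bars are medians; ATP5MC2 lies at -1.11 in BPS1 against control and at 1.06 in BPS2 against BPS1, and NDUFS7 is the filled point above 0 in the left panel.

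Complex V held the member that changed most. ATP5MC2 (ENSG00000135390, chr12:53632726-53677408 on GRCh38, minus strand, protein-coding) encodes subunit c, the protein of the membrane ring that turns as protons pass. Its normalized counts were 9808, 8559, 8133 and 7421 in control, 3678, 3675, 3553 and 4867 in BPS1, and 7678, 8286, 8421 and 8171 in BPS2. Every BPS1 library was below every library of the other groups. The means were 8480 ± 1002, 3943 ± 618 and 8139 ± 324 (SD, n = 4). BPS1 was thus 2.16-fold lower than control, a log2 change of -1.11 ± 0.10 (SE; limma adjusted p = 4.32e-05), and the exact two-sided permutation p over the 70 arrangements was 0.0286, the smallest they can give. BPS2 differed from control by -0.05 ± 0.10 (adjusted p = 0.902), with a 95% interval of -0.28 to 0.17. BPS2 was above BPS1 by 1.06 ± 0.10 (adjusted p = 1.04e-04).

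Subunit c is made from 3 genes whose mature proteins are the same, and the other genes did not follow ATP5MC2. ATP5MC1 was at 7836, 6131, 6003 and 5332 in control, 5718, 5995, 5959 and 9297 in BPS1, and 5862, 6999, 7037 and 6567 in BPS2. ATP5MC3 was at 7436, 6617, 6036 and 5552 in control, 5942, 5986, 6112 and 8557 in BPS1, and 6094, 6953, 7068 and 6780 in BPS2. For both the groups overlapped, with log2 changes in BPS1 of 0.08 ± 0.15 (95% interval -0.25 to 0.40) and 0.04 ± 0.12 (-0.22 to 0.30). ATP5MC2 made up 39.1% to 40.5% of the summed normalized counts of the 3 genes in control, 21.4% to 24.0% in BPS1 and 37.3% to 39.1% in BPS2. This share separated BPS1 in all 4 libraries, BPS1 replicate 4 included, where it was lowest. The sum itself was 15337, 15656, 15624 and 22721 in BPS1 against 18305 to 25081 in control, so BPS1 replicate 4 lay within the control range and the other 3 below it. Neither the share nor the sum is adjusted for length, so they do not measure transcript numbers. The annotated transcripts of ATP5MC1, ATP5MC2 and ATP5MC3 have 598, 1950 and 842 bases. Per kilobase the control levels were 10578, 4349 and 7613, lowest for ATP5MC2. No run of 31 bases was shared between the transcripts of the 3 genes in GENCODE release 29. ATP5MC2 shared 7.18% of its 31-base runs with other genes, the largest part with the pseudogene ATP5MC2P4.

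**Figure D3:**
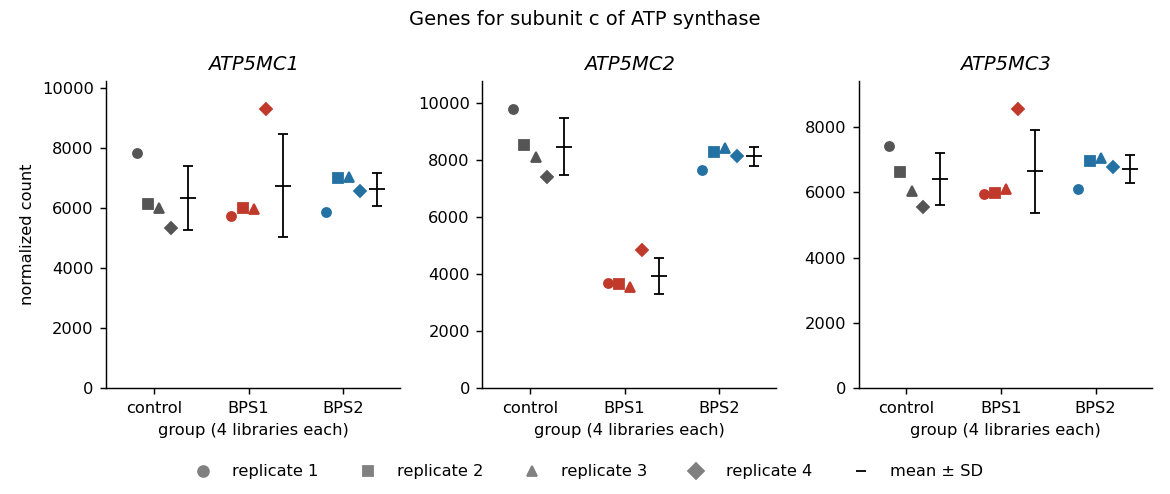
Normalized counts (y axis, from 0) of the 3 genes for subunit c in each library, by group (x axis), with the replicate numbers as symbols and the mean ± SD (n = 4) beside them. For ATP5MC2 the BPS1 libraries lie between 3553 and 4867, below all others, whereas for ATP5MC1 and ATP5MC3 they overlap both groups.

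The remaining 15 tested genes of complex V did not pass. The catalytic head is built mainly of alpha and beta subunits. ATP5F1B, the beta subunit that holds the catalytic site, was at 36677, 31334, 29824 and 29232 in control, 31881, 34350, 34224 and 48950 in BPS1, and 31886, 33988, 34207 and 32930 in BPS2. ATP5F1A, the alpha subunit, had means of 13300.5 ± 1152, 14376 ± 1923 and 12744 ± 254. Both overlapped between groups, with log2 changes in BPS1 of 0.22 ± 0.12 (adjusted p = 0.296) and 0.11 ± 0.09 (adjusted p = 0.520). ATP5F1E, the epsilon subunit of the central stalk, had values of 6531, 6331, 6302 and 10500.1 in BPS1 against 7566 to 10934 in control, where 3 BPS1 libraries were below all control libraries and BPS1 replicate 4 was not (-0.27 ± 0.16, adjusted p = 0.340). ATP5IF1, the inhibitor that binds the enzyme when the gradient collapses, had 2122, 2090, 2124 and 3487 in BPS1 against 1695 to 1766 in control replicates 2 to 4 and 2213 in control replicate 1 (0.38 ± 0.15, adjusted p = 0.162). These 2 genes depended on the libraries that stood apart and are taken up again below.

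In complex I, 7 core subunits, among them those that carry the flavin and the iron-sulphur clusters, are encoded in the nucleus, and 1 of them passed. NDUFS7 (ENSG00000115286, chr19:1383527-1395589, plus strand, protein-coding) holds the cluster next to the ubiquinone site. It was at 1727, 1631, 1594 and 1777 in control, 2265, 2187, 2211 and 4159 in BPS1, and 2022, 2333, 2423 and 2077 in BPS2. Every BPS1 and BPS2 library was above every control library, and BPS1 replicate 4 was far above the other BPS1 libraries. The log2 change in BPS1 was 0.63 ± 0.17 (1.55-fold, adjusted p = 0.0380), and in BPS2 it was 0.39 ± 0.17 (adjusted p = 0.396); without BPS1 replicate 4 and control replicate 1 it was 0.41 ± 0.07 in each, and both passed. The BPS1 call was lost in 11 of 28 alternative analyses, with adjusted p up to 0.106, among them the omission of any control library or of any BPS2 library.

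The other core genes did not pass. NDUFS1, the largest subunit of the complex, was at 4668, 5250, 5118 and 4552 in control, 5508, 5740, 5791 and 5394 in BPS1, and 4749, 5251, 4889 and 5245 in BPS2. Its BPS1 libraries were above all others, by 0.20 ± 0.07 over control (adjusted p = 0.0846) with an exact permutation p of 0.0286. It was also the member least like the rest over the 12 libraries, with a median Pearson's r of -0.05 to the others. The log2 changes of NDUFS3, NDUFS8, NDUFV1 and NDUFV2 in BPS1 were 0.03, 0.12, 0.06 and 0.16, each with an adjusted p of at least 0.599. In BPS2 they lay between -0.02 and 0.14.

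Among the 30 accessory subunits of complex I, which surround the core, 1 passed. NDUFA5 (ENSG00000128609, chr7:123536997-123558255, minus strand, protein-coding), a subunit of the arm in the matrix, was at 3904, 3912, 3834 and 3715 in control, 3111, 3192, 3138 and 3513 in BPS1, and 3878, 3865, 3680 and 4084 in BPS2. All BPS1 libraries were below all others, and the gap between the highest BPS1 library and the lowest of the rest was small. The change was 1.19-fold, -0.25 ± 0.06 against control (adjusted p = 0.0247), and BPS2 was above BPS1 by 0.26 ± 0.06 (adjusted p = 0.0309). These calls were lost in 12 and 16 of the 28 alternatives, with adjusted p up to 0.312 and 0.537. They were lost, for instance, without control replicate 2, without control replicate 3 and without any one of BPS1 replicates 1 to 3.

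NDUFA7 (chr19:8308768-8321396, minus strand), another accessory subunit, was at 952, 833, 780 and 665 in control, 475, 502, 538 and 801 in BPS1, and 653, 809.8, 837 and 766 in BPS2. BPS1 replicates 1 to 3 were below all other libraries and BPS1 replicate 4 was not (-0.50 ± 0.16, adjusted p = 0.0739). NDUFA7 shared 74.6% of its 31-base runs with an overlapping gene on its own strand, AC010323.1, and lay opposite RPS28, so its level is uncertain. NDUFC1, a small subunit of the membrane arm, was at 1022, 790.3, 753 and 676 in control, 619.6, 616, 583 and 932 in BPS1, and 844, 892, 1063 and 967 in BPS2. Its largest difference was BPS2 over BPS1, 0.47 ± 0.16 (adjusted p = 0.127), and again only BPS1 replicate 4 overlapped BPS2. NDUFA4 had means of 10996 ± 1902, 10575 ± 2420 and 11455 ± 240, and no difference passed.

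**Figure D4:**
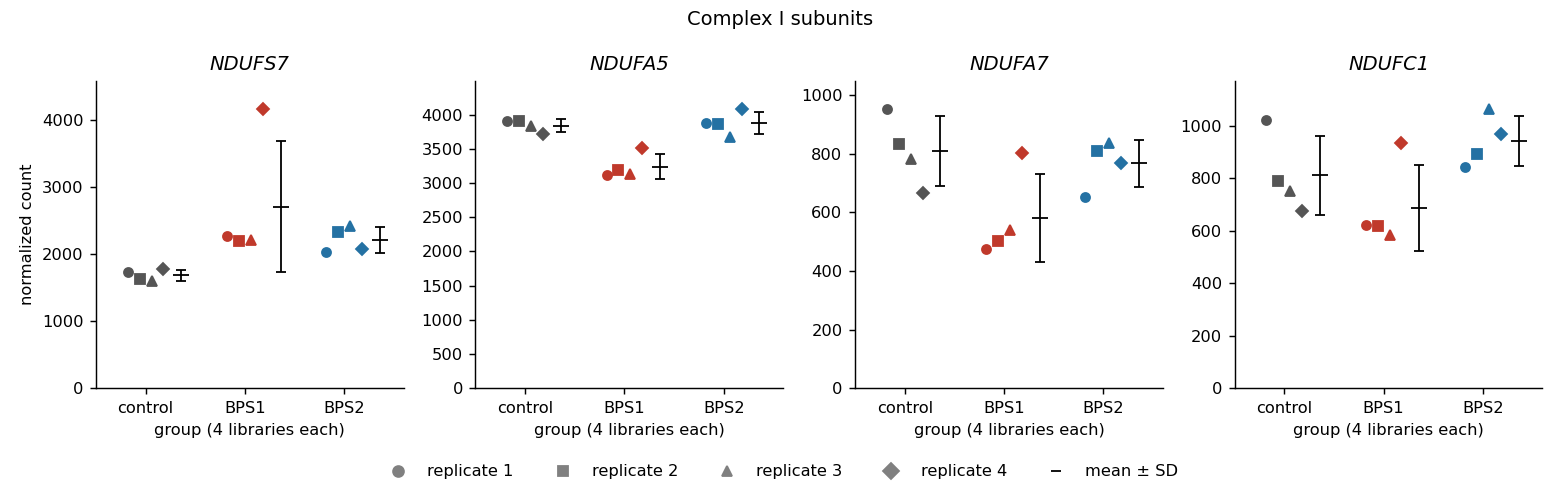
Normalized counts (y axis, from 0) of 4 complex I subunits in each library, by group (x axis), with replicate numbers as symbols and the mean ± SD (n = 4) beside them. BPS1 replicate 4 lies above the other BPS1 libraries in each panel, at 4159 for NDUFS7 and at 801 for NDUFA7.

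Complex II joins the citric acid cycle to the respiratory chain, and none of its 4 genes passed. All 4 log2 changes in BPS1 were below 0, with a median of -0.15. SDHD, a membrane anchor, was at 1507, 1438, 1476 and 1338 in control, 1127, 1213, 1229 and 1371 in BPS1, and 1289, 1339, 1445 and 1298 in BPS2 (BPS1 -0.22 ± 0.08, adjusted p = 0.0968). SDHC, the other anchor, was at 6031, 5989.5, 6517 and 5431 in control, 4627, 5157, 5073 and 6023 in BPS1, and 5589, 6261, 6135 and 6236 in BPS2 (-0.20 ± 0.08, adjusted p = 0.172). In both genes BPS1 replicates 1 to 3 were below every control library. SDHA, which carries the flavin, and SDHB, which carries the iron-sulphur clusters, changed by -0.11 ± 0.12 and -0.03 ± 0.14, with groups that overlapped. SDHA shared 39.0% of its 31-base runs with other genes, most of them with the pseudogene SDHAP1.

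No gene of complex III passed in any comparison with all libraries. UQCRC1, a core subunit, had means of 6537 ± 788, 7659 ± 1788 and 7497 ± 437, and UQCRFS1, the Rieske iron-sulphur protein, had 3085 ± 460, 3454 ± 805 and 3464 ± 125. Their log2 changes in BPS1 were 0.21 ± 0.13 and 0.15 ± 0.14. UQCRH, the hinge protein that helps cytochrome c dock, made up 99.9% or more, after rounding, of the summed counts of itself and its copy UQCRHL. The values of UQCRHL were at most 9.15, and it failed the filter. UQCRH shared 43.9% of its 31-base runs with UQCRHL, so the split between these genes is uncertain.

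Complex IV has pairs of isoforms whose second gene is known from muscle, lung, testis or heart, and in these cells the common isoform dominated. COX4I1 supplied 99.5% to 99.8% of the COX4 counts, with COX4I2 at 14 to 48. COX7B and COX8A supplied at least 99.8% of their pairs. COX6A2 was at 0 in all 12 libraries, and COX7A1 reached at most 15.4. COX7A2 and COX7A2L, the latter a factor that joins complexes III and IV, each held about as much as the other, 46.1% to 54.2% of the COX7A sum for COX7A2. COX6B2, a testis isoform, was at 174 in control replicate 3 and at 29 to 55 in the other 11 libraries, so its control mean of 68.7 ± 70.6 rested on 1 library. None of the 13 tested genes passed, and the log2 changes lay between -0.26 and 0.18 in BPS1 and between -0.37 and 0.21 in BPS2, COX6B2 being the lowest in both. The genes that failed the filter were COX6A2, COX7A1, COX7B2, COX8C, UQCRHL and ATP5MGL.

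Without control replicate 1 and BPS1 replicate 4, the counts were different. For BPS1 against control 10 of 81 passed, 12.3% against 13.7% of all genes, with NDUFS7, NDUFA9, ATP5F1B and ATP5IF1 higher and ATP5MC2, NDUFA5, NDUFA7, SDHC, SDHD and ATP5F1E lower. ATP5MC2 was then at -1.14 ± 0.06, NDUFA7 at -0.58 ± 0.11 and ATP5F1E at -0.34 ± 0.07. The median was -0.02. For BPS2 against control 22 of 81 were higher and none lower, 27.2% against 9.54% of all genes in either direction, and the median was 0.18 against 0.00 for all genes. They were 12 genes of complex I, 1 of complex II, 2 of complex III, 3 of complex IV and 4 of complex V. NDUFS7 was the highest at 0.41 ± 0.07, followed by NDUFAB1, the acyl carrier protein, at 0.37 ± 0.08 and NDUFC1 at 0.35 ± 0.09. Of all 81 genes, 78 were above 0.

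For BPS2 against BPS1, 38 of 81 were then higher in BPS2 and none was lower, 46.9% against 17.4% of all genes in either direction, with a median of 0.18. They were 15 genes of complex I, 3 of complex II, 6 of complex III, 7 of complex IV and 7 of complex V. ATP5MC2 led at 1.16 ± 0.05, followed by NDUFC1 at 0.63 ± 0.09, NDUFA7 at 0.60 ± 0.10 and UQCR11 at 0.43 ± 0.08. Among the 38 were small subunits of complex IV, COX8A (0.39 ± 0.06) and COX6A1 (0.35 ± 0.06), and of complex V, ATP5F1E (0.40 ± 0.06). In the same fit and comparison 47 of 78 tested genes of the cytosolic ribosome were higher and 1 was lower, where 17.4% of all genes passed. In BPS1 against control 39 of these 78 were lower and none higher, 50% against 13.7% of all genes. In BPS2 against control these ribosomal genes gave 1 higher and 1 lower. In that comparison 13 of 78 genes of the mitochondrial ribosome were higher and none lower, 16.7% against 9.54% of all genes. Their median was 0.16. Of 60 assembly factors 7 were higher and 2 lower, 15% of the list. The 22 and 38 calls share the BPS2 libraries and are not independent of each other. The genes named in these 2 paragraphs were chosen after their values were seen. The calls rest on leaving out 2 libraries that were picked for standing apart in these same genes. Both lay high in them, so leaving them out lowers the control and BPS1 levels of most members. It moves the BPS2 comparisons upward, so the direction of the calls was in part set by that choice. BPS2 replicates 2 to 4 carry the trends with length and GC content given above. The control and BPS1 libraries that remain carry opposite trends, weak for length in control replicate 2. The counts of a fit with a correction for both, added after seeing the data, are given in the last section. Beyond that fit, the part of these trends in the calls was not tested. Whether the shift belongs to the oligonucleotides or to the libraries was not tested.

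**Figure D5:**
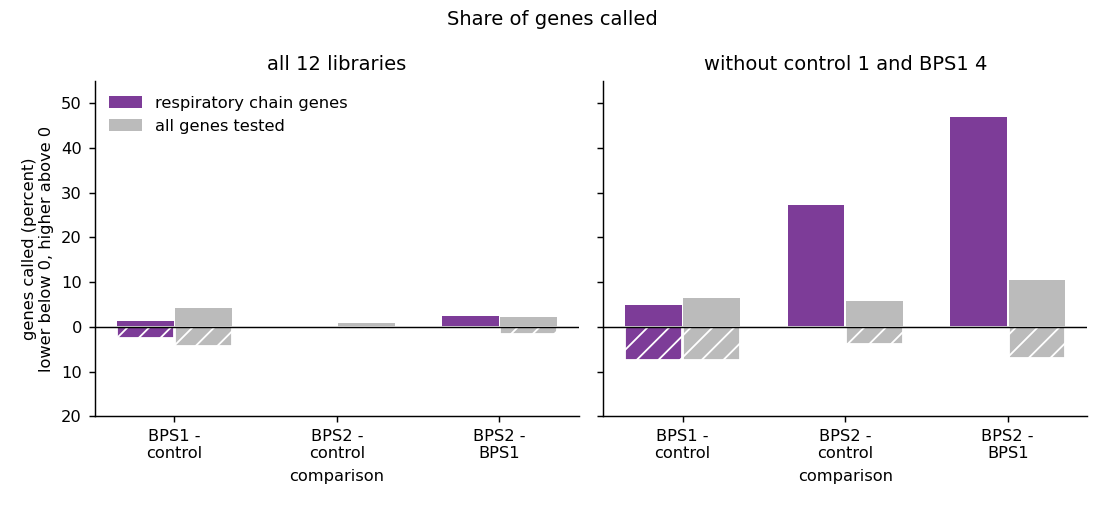
Share of genes called (y axis, percent, higher above 0 and lower hatched below 0) among the 81 respiratory chain genes and among all genes tested, by comparison (x axis), with all 12 libraries and without control replicate 1 and BPS1 replicate 4. In the right panel 27.2% and 46.9% of the respiratory chain genes are higher in BPS2 than in control and in BPS1, and none is lower. The 2 libraries left out lay high in these genes, so their omission in itself moves the BPS2 comparisons upward.

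The members rose and fell together from library to library, and whether other genes did so as closely was not examined. Over the 3240 pairs of tested genes the median Pearson's r across the 12 libraries was 0.846, and 34.5% of pairs were above 0.9; these libraries share the 2 that stood apart, so the values are a description. ATP5MC2 (median r 0.18) and NDUFA5 (0.24) were among the genes least like the others. By the same measure ATP5MC2 was closest to NDUFA5 (0.952), NDUFA7 (0.860) and SDHD (0.803), and NDUFS7 to ATP5IF1 (0.916), NDUFA10 (0.912) and ATP5F1D (0.884). These values include the differences between groups. ATP5MC2 and the genes closest to it were all lower on average in BPS1 than in control, and NDUFS7 and its closest genes higher. Their closeness in part restates that difference.

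Per kilobase of annotated transcript, control levels within a complex differed widely. The highest were NDUFS5 in complex I (13164 normalized counts per kilobase), SDHB in complex II (2395), UQCRH in complex III (13002), COX4I1 in complex IV (11217) and ATP5F1B in complex V (17274). The lowest tested genes were NDUFV3 (189), SDHC (442), UQCRFS1 (888), COX4I2 (44.5) and ATP5F1D (1100). For SDHC, NDUFA9, NDUFV3 and UQCRFS1 the annotated transcript is long, at 13566, 8363, 4676 and 3475 bases, and lowers the value. The deposited identifiers of 6 members, ATP5IF1, COX8C, NDUFA3, NDUFA6, NDUFA10 and NDUFS1, are not in release 29, so these have no length.

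Genes that build or serve the complexes were examined beside the subunits with all 12 libraries. Of 60 assembly factors, 2 rose and 5 fell in BPS1 relative to control, 11.7% against 8.6% of all genes. None passed in BPS2 against control, and BPS2 exceeded BPS1 in 4 and lay below it in 2, 10% against 3.93% of all genes. UQCC2, which is needed to make cytochrome b of complex III, was at 2086, 1674, 1585 and 1353 in control, 495, 459, 440 and 527 in BPS1, and 1740 to 1957 in BPS2. It fell by 1.79 ± 0.12 on the log2 scale (adjusted p = 1.95e-06), more than any subunit. TIMMDC1, a complex I factor of the membrane arm, fell by 0.85 ± 0.11 (adjusted p = 4.60e-04), and CMC2 and COX20, factors of complex IV, fell by 0.75 ± 0.12 and 0.53 ± 0.11. ACAD9, a complex I factor, and LRPPRC, which stabilises mitochondrial mRNA, rose by 0.35 ± 0.06 and 0.23 ± 0.06. In BPS2 against control the changes of UQCC2, CMC2 and COX20 were 0.17, 0.05 and 0.20, and that of TIMMDC1 was -0.42 (adjusted p = 0.0966).

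The 13 subunits encoded in mitochondrial DNA took 7.50% ± 0.383 of the total in control, 6.68% ± 0.160 in BPS1 and 7.26% ± 0.116 in BPS2. Of the 13, 6 were lower in BPS1 (46.2%, against 8.6% of all genes) and 2 in BPS2 (15.4%, against 1.21%), with none higher. MT-CO2 was the lowest in BPS1 at -0.49 ± 0.09, and MT-ND5 was at -0.30 ± 0.07 in BPS1 and -0.51 ± 0.07 in BPS2. Among 18 genes of the citric acid cycle, citrate synthase CS was at 8573 to 9993 in control and 5434 to 6186 in BPS1 (-0.72 ± 0.07, adjusted p = 7.35e-05), OGDH and SUCLG2 were also lower, and FH was higher, 22.2% of the list. Among 18 regulators of mitochondrial biogenesis, ESRRA (0.61 ± 0.09), ESRRG (0.78 ± 0.19) and GABPB1 (0.40 ± 0.11) were higher in BPS1 and none was lower, 16.7% of the list. PPARGC1A and NRF1, the best known of these regulators, changed by 0.16 ± 0.29 and -0.06 ± 0.10. Of 78 proteins of the mitochondrial ribosome 3 were higher and 3 lower in BPS1, 7.69% and so near the share of all genes, and none passed in BPS2 against control. Of 16 electron carriers 1 passed, 6.25%: COQ6, an enzyme of ubiquinone synthesis, was lower in BPS1 (-0.43 ± 0.09), CYCS was at 0.27 ± 0.08 (adjusted p = 0.0606) and CYC1 at 0.18 ± 0.16.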

How the data were processed

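RNA was measured in 12 libraries, 4 for each of 3 oligonucleotides. For every gene and library the authors deposited a signal value, namely a normalized count. The submitters' processing notes list DESeq2, Salmon 0.8.2 and FastQC 0.11.7, with GRCh38 as the build; which annotation was used and how transcripts were summed is not given in the sources used here. Low values of each library lie in steps worth about 1 read, which puts the depth at 29.1 to 31.8 M reads, but most genes are not whole multiples of the step, so reads were not recovered and no count test was run. BPS2 columns were matched by sample title, since another name stands in their description, and BPS1 replicate 3 has a column headed BSP1.

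Genes that reached 10 in 4 or more libraries were kept. One limma fit (limma 3.58.1, R 4.3.3; group as the only term, mean-variance trend) on log2(value + 1) gave the 3 comparisons, with p-values adjusted by Benjamini-Hochberg over 20454 genes; on this scale the change of low genes is understated. The fit was tested on simulated data. An exact permutation test, two-sided, was added for single genes. Values are means ± SD (n = 4), fold changes carry the SE of the fit, and the number of libraries limits the precision.

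Positions, lengths, GC content and 31-base runs were read from GENCODE release 29 (GRCh38) by the deposited gene identifier. It held the identifiers of 81 of the 87 members. The authors may have used another release, and length is that of 1 principal transcript. Promoter sequences come from RefSeq on GRCh38.p14, matched by symbol. The members, the gene lists and the rule for named genes were chosen with earlier results of these data known. The genes named were those called with all libraries, core catalytic subunits, isoform sets, the highest and lowest per kilobase, those changed 1.5-fold or failing the filter, and at most 4 per other list and comparison; 1 gene that the rule takes is not reported here. Comparisons with control share the control libraries. Alternatives were pseudocounts of 0.5 and 5, a filter at 50 or none, quantile scaling, median-of-ratios scaling, robust variance, a GC correction, a block on replicate number, weights per library, only the groups compared, and leaving out single libraries or the 2 that stood apart. A correction for GC content and length, alone and without those 2 libraries, and scaling to the members' median were added after seeing the data.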

Additional observations from a re-analysis of the deposited data

Results flagged for a closer look

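In 120 groups of 4 libraries, formed from 33 members, the summed shares and the subunit c sum, the gap between the highest or lowest library and the next was compared with the range of the group. In 38 of these groups 1 library stood apart by more than Dixon's 95% limit. Chance flags about 1 in 20 groups, and the genes of a library are not independent of each other. BPS1 replicate 4 was the library in 29 of the 38, BPS2 replicate 1 in 7, and control replicates 1 and 3 in 1 each.

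BPS1 replicate 4 was the highest of its group each time. In complex V it stood at 9297 normalized counts for ATP5MC1, 4867 for ATP5MC2, 8557 for ATP5MC3, 48950 for ATP5F1B, 10500.1 for ATP5F1E and 3487 for ATP5IF1, and at 22721 for the summed subunit c genes. In complex I it stood at 4159 for NDUFS7, 2788 for NDUFS8, 7613 for NDUFV1, 5120 for NDUFV2, 932 for NDUFC1 and 14183 for NDUFA4. In complexes II and III it stood at 3778 for SDHB, 10318 for UQCRC1, 4659 for UQCRFS1 and 10197 for UQCRH. In complex IV it stood at 12894 for COX4I1, 8492 for COX6A1, 4984 for COX6B1, 5481 for COX7A2, 4634 for COX7A2L, 5923 for COX7B and 5458 for COX8A. The summed share of all members was 1.38% in it, with 0.465% for complex I, 0.159% for complex III, 0.205% for complex IV and 0.504% for complex V.

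BPS2 replicate 1 was the lowest of its group each time, at 7484 for ATP5F1E, 1685 for NDUFS8, 6848 for UQCRC1, 7051 for UQCRH and 2758 for COX6B1, with 1.04% for the summed share of all members and 0.346% for complex I. Control replicate 1 stood apart for ATP5IF1 at 2213, and control replicate 3 for COX6B2 at 174. The complex I subunits NDUFS1, NDUFS3, NDUFA5 and NDUFA7, and SDHA, SDHC and SDHD, had no library that stood apart by this measure.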

How the results depend on the processing

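ATP5MC2 was called in all 28 alternatives, at -1.22 to -1.04 for BPS1 against control and at 1.01 to 1.16 for BPS2 against BPS1. No called gene changed direction in any alternative. The median log2 change of the 81 genes ranged from -0.13 to 0.14, from 0.00 to 0.18 and from -0.04 to 0.18 in the 3 comparisons.

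The number of genes called moved most. For BPS1 against control, where 3 were called, it was 1 with no filter, 1 with the replicate block, 1 with only the groups compared, 6 when scaled to the members' median, 11 with library weights, 10 without control replicate 1 and BPS1 replicate 4, and 12 when these were left out with the GC and length correction. For BPS2 against control, where none was called, it was 2 with library weights, 1 with only the groups compared, 22 without the 2 libraries and 25 with the correction as well. For BPS2 against BPS1, where 2 were called, it was 1 with no filter, 1 with the replicate block, 1 with the GC correction, 1 with that correction and the block, 1 with only the groups compared, 23 with library weights, 38 without the 2 libraries and 35 with the correction as well. Leaving out 1 library at a time gave 1 to 8, 0 to 1 and 1 to 11, and the highest counts came without BPS1 replicate 4. The cause was not tested.

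The same replicate numbers do not mark shared samples in the labels, and deviations of same-numbered libraries correlated at -0.272 to 0.103. Control replicate 1 and BPS1 replicate 4 take part in these values and correlated at 0.424 with each other. A pairing by number was therefore neither shown nor excluded. With the number as a block NDUFA5 and NDUFS7 lost their calls. The calls of NDUFA5 and NDUFS7 were also lost with no filter and with only the groups compared. Depth was high for most members, and the spread between libraries sets what could be seen: the 95% interval of ATP5MC1 in BPS1, for instance, runs from -0.25 to 0.40.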
